A study of Mus musculus with 4 samples.

Results

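The genes described here encode 9 secreted proteins of cartilage matrix: Acan, Hapln1, Matn1, Matn3, Matn4, Ucma, Cytl1, Mia and Epyc. They were chosen by name, as all 9 of 9 were listed in each of the 4 count matrices, of 32453 genes listed in any of them. The 16 month matrix listed 31054 genes and each of the others 27999, with 26600 genes in all 4. The cells were Td+ endosteal bone marrow cells of male Col2:Td mice on a B6SJL/F1 background, in which a Cre driven by the Col2 promoter turns on a tdTomato reporter in Rosa26, and all 4 groups carried both transgenes without further treatment. By their labels the groups differed in age alone, with 2 mice pooled at 1 month and 3 mice pooled at each of 1.5, 3 and 16 months, and each pool gave 1 single-cell RNA sequencing library. There was no replicate of any age, so differences between ages are differences between libraries, no test between them was possible, and intervals are 95% intervals that cover counting error only. Sorting took either a visible Td+ peak or the brightest 1% of cells, after the epiphyses had been cut off and the metaphyseal bone digested, so the sample held cells that the sort and the digestion released and not a whole growth plate.

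Cartilage matrix owes its resistance to compression to aggrecan (Acan), a large core protein that carries chondroitin sulfate chains and binds water, and to link protein (Hapln1), which locks aggrecan onto hyaluronan. Matrilins (Matn1, Matn3 and Matn4) are oligomeric adaptors between collagen fibrils and proteoglycans, and epiphycan (Epyc) is a small leucine-rich proteoglycan of epiphyseal cartilage. Ucma is a secreted protein rich in gamma-carboxyglutamate that is best known from the upper, resting zone of growth plates, Mia (also called cartilage-derived retinoic acid-sensitive protein) is a small secreted protein of chondrocytes and melanomas, and Cytl1 is a cytokine-like secreted protein of chondrocytes. In the growth plate, resting chondrocytes give rise to columns of dividing cells, which leave the cell cycle and enlarge into hypertrophic cells that make type X collagen.

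The genes lie apart in the mouse genome (GENCODE M21 on GRCm38), with Acan on chromosome 7 from 79053483 to 79115099 on the plus strand, Mia on the same chromosome from 27179742 to 27181157 on the minus strand, and Hapln1 on chromosome 13 from 89539796 to 89611652. Matn1 lies on chromosome 4 from 130944385, Matn3 on chromosome 12 from 8947929, Cytl1 on chromosome 5 from 37735519 and Epyc on chromosome 10 from 97644068, all 4 on the plus strand. Ucma (from 4976122, plus strand) and Matn4 (from 164389393, minus strand) share chromosome 2. Mia overlaps the gene Gm21983 on the same strand. How reads that fit both genes were counted is unknown, so the counts of Mia are uncertain to that extent.

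The bases before the start sites of the genes that anchor aggrecan on hyaluronan, Acan and Hapln1, and of Epyc are shown because the members' levels varied over clusters largely together, Matn4 and Cytl1 apart, and because these promoters differ widely in base composition. They are 250 bases upstream of the RefSeq start on GRCm38.p6, written from 5′ to 3′ on the gene's strand. Capitals mark a SOX-type motif, NNCAANG with A or T at each N, which gives 8 spellings of 7 letters, searched on both strands with overlapping matches kept.
Acan, chr7:79052976-79053225, plus strand: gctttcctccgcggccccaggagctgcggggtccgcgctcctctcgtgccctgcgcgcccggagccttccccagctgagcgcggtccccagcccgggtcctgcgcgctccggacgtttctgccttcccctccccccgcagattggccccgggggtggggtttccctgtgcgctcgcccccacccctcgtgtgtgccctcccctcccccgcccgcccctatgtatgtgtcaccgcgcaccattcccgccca
Hapln1, chr13:89540386-89540635, plus strand: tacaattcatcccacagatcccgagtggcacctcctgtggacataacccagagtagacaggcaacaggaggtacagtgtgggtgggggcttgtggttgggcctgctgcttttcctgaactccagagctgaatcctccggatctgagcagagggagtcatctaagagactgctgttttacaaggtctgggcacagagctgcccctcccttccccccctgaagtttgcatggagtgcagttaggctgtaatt
Epyc, chr10:97643818-97644067, plus strand: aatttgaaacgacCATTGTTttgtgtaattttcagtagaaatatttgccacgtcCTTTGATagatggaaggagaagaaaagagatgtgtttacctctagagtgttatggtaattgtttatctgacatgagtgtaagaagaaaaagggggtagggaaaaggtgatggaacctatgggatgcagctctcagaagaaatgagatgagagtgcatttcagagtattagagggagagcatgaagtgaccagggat
Epyc, chr10:97646853-97647102, plus strand: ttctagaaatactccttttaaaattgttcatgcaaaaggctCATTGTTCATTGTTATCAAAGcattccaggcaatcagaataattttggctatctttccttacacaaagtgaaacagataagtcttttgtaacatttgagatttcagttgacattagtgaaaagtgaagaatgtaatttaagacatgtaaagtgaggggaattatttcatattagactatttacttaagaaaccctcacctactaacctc
Matches stood in 2 of the 11 RefSeq promoters of the 9 genes, and both were promoters of Epyc, with 2 matches in the first and 3 in the second. Of all 32851 promoters of the same length, 21.8% held a match, and the share of all 27025 genes with a match in at least 1 promoter was 24.3%, so a match in 1 of 9 genes is no more than that background. The Epyc promoters were poor in G and C, at 39.2% and 31.2%, whereas that of Acan held 74.4% and the median over all promoters was 52.4%. The other 8 genes had none of these letters in this window. A match here describes letters and not a bound site, and the RefSeq starts of Acan and Hapln1 differ from the annotated gene starts given above.

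Before the members were compared, cells were grouped by genes that did not include them. A class was called by a set of markers (Col2a1, Col9a1, Col9a2, Col9a3, Col11a2, Sox9 and Col27a1 for chondrocytes), and 3485 of the 24084 cells kept were chondrocyte-like, with all 7 markers detected in each library. There were 493 of 8308 cells (5.93%) at 1 month, 1982 of 5453 (36.4%) at 1.5 months, 893 of 4180 (21.4%) at 3 months, and then 117 of 6143 (1.91%) at 16 months, shares that the sort and the digestion can set. The tdTomato transcript was found in 99.8 to 100% of the chondrocyte-like cells. It was also found in 96.5 to 99.9% of all cells kept, so it does not set the class apart. Libraries held 32672631 to 108227184 UMIs over all barcodes, and pairs of libraries shared 1 to 61 cell barcodes.

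Some libraries stood apart. In the 1 month chondrocyte-like cells the 7 neutrophil markers summed to 13250 CPM (UMIs of a gene scaled to 1e+06 UMIs of the class) and the 7 erythroid markers to 5481 CPM, against 208 and 203 CPM at 1.5 months, 1625 and 1320 CPM at 3 months, and 156 and 772 CPM at 16 months, and none of the 14 markers was at 0 in any library. The 7 adipocyte markers, which include Lpl and Cxcl12, were highest in the 16 month chondrocyte-like cells (1778 CPM). At 3 months 229 of the chondrocyte-like cells formed a cluster led by Hba-a2, and without this and like clusters the members' summed level was 16790 CPM in place of 17200. The part of these transcripts in the members' levels was not tested. The 7 chondrocyte markers themselves summed to 44030, 71120, 51440 and 9616 CPM at 1, 1.5, 3 and 16 months. Col9a1 stood at 2270, 4568, 3401 and 69.0 CPM in that order, whereas Sox9 was highest at 16 months (1242 CPM). Whether the class held like cells at 16 months and before was not tested. At 1.5 months the members were also raised in the other classes, where their median level was 4.20 to 8.46% of that in chondrocyte-like cells in 10 of the 11 other classes and 44.2% in the 47 neutrophil-like cells, whereas at 1 month the medians of the 16 other classes ran from 0.414 to 3.19%.

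The members were transcripts of the chondrocyte-like cells, with Matn4 as the exception. Among named classes of at least 20 cells (17, 12, 14 and 12 classes at 1, 1.5, 3 and 16 months), 8, 8, 8 and 7 of the 9 members reached at least 10 CPM and had their highest level in chondrocyte-like cells, where 4.87%, 6.52%, 5.09% and 8.44% of all genes tested (those with at least 10 CPM in 1 or more classes) did so. At least 4-fold above every other named class were 8, 0, 7 and 7 members in the same order, where the shares of all genes tested were 0.793%, 0.0877%, 1.14% and 1.53%. The clustering had used neither the members nor the chondrocyte markers, but other genes of the same cells, so these counts are a description of the class. The 0 at 1.5 months came from the 47 neutrophil-like cells, which were the next class for all 8 members other than Matn4, with folds of 1.25 (Ucma) to 2.56 (Hapln1). Their 7 own markers summed to 133500 CPM, against 377000 to 444600 CPM in the neutrophil-like cells of the other libraries. Against classes that are not blood cells 7 members were at least 4-fold higher at 1.5 months, and 8 were when the highest 8% of doublet scores were removed.

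**Figure D1:**
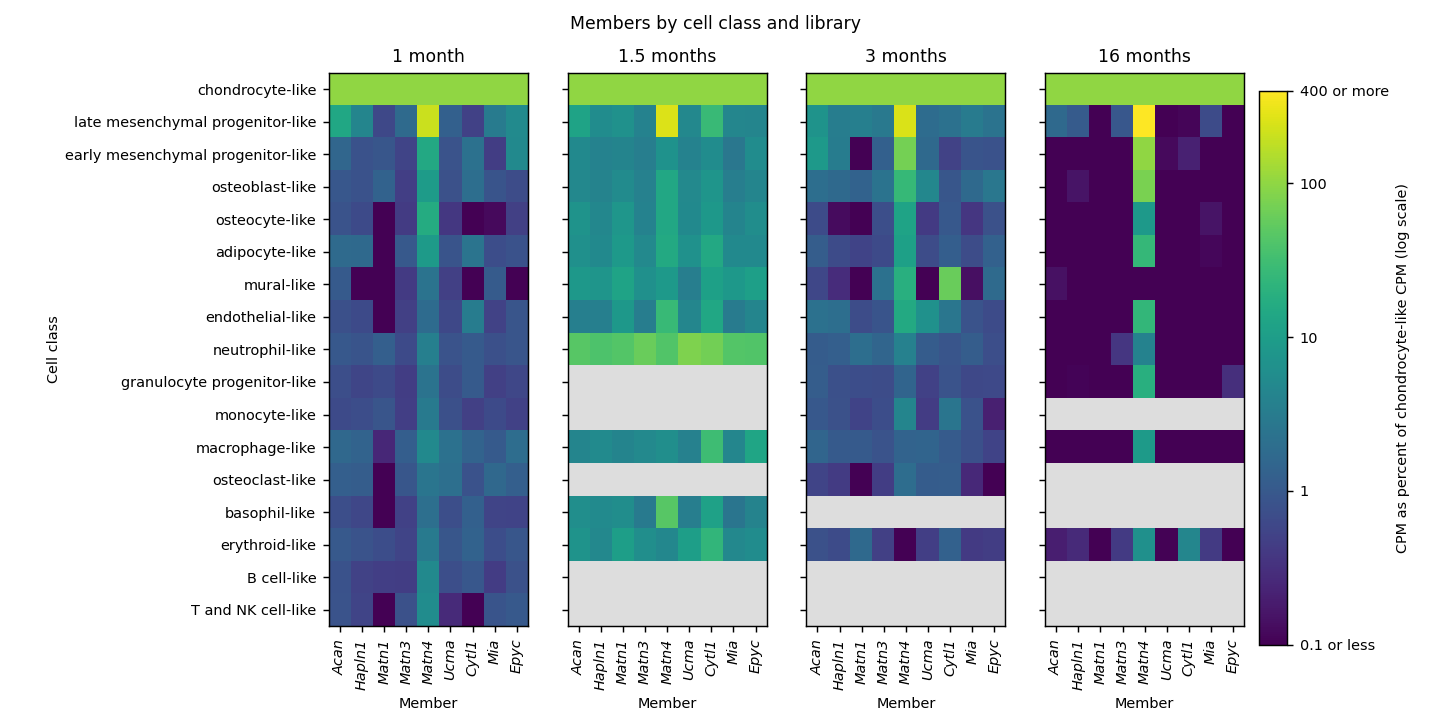
Heat map of the level of each member (x axis) in each named class of at least 20 cells (y axis), as a percent of its CPM in the chondrocyte-like cells of the same library, on a log colour scale from 0.1 or less to 400 or more, with 1 panel per library and grey where a class had too few cells. The chondrocyte-like cells are at 100 by construction, the neutrophil-like cells at 1.5 months stand between 39.1 and 79.8%, and Matn4 is above 100% in late mesenchymal progenitor-like cells in all 4 libraries.

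Aggrecan was close to level across the ages. Acan stood at 2511 CPM (2472 to 2550) at 1 month, 3402 (3381 to 3424) at 1.5 months, 2985 (2947 to 3025) at 3 months, and then 3130 (3045 to 3217) at 16 months in chondrocyte-like cells. No interval overlapped another, but the highest library was 1.36 times the lowest (1.33 to 1.38). The next class was the late mesenchymal progenitor-like (LMP-like) cells at 1 and 16 months, with 352 and 52.8 CPM, and the ratio of chondrocyte-like to LMP-like cells was 7.14 (6.82 to 7.48) at 1 month and 59.3 at 16 months. At 3 months the next class was the early mesenchymal progenitor-like cells with 258 CPM.

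Link protein moved more than aggrecan. Hapln1 stood at 2303 CPM at 1 month, 4521 at 1.5 months, 3027 at 3 months, and then 2124 at 16 months. The 1.5 month library was the highest, 1.96 times the 1 month library (1.93 to 2.00) and 2.13 times the 16 month library. Outside chondrocyte-like cells Hapln1 was highest in LMP-like cells at 1, 3 and 16 months, at 99.9, 101.4 and 23.3 CPM, with folds of 23.1, 29.8 and 91.1.

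Among the matrilins, Matn1 changed most with age. It stood at 85.4 CPM (78.3 to 92.8) at 1 month, 753 (743 to 763) at 1.5 months, 194 (184 to 204) at 3 months, and then 3.70 (1.36 to 8.04, 6 UMIs) at 16 months. The 1.5 month library was therefore far above both neighbours, 8.82 times the 1 month library (8.10 to 9.62) and 3.89 times the 3 month library, and the 16 month level was 0.00491 times that at 1.5 months (0.0018 to 0.0107). Outside chondrocyte-like cells Matn1 was at 0 to 1.151 CPM in the 16 other named classes at 1 month, and at 31.6 to 93.4 CPM in 10 of the 11 at 1.5 months, the 47 neutrophil-like cells being at 332 CPM. The 93.4 CPM of the mural-like cells was 36.6 CPM without 1 of their 65 cells.

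Matn3, whose gene is mutated in a form of multiple epiphyseal dysplasia in people, was lowest at the last age. It stood at 2124 CPM at 1 month, 2837 at 1.5 months, 1610 at 3 months, and then 262 (238 to 288) at 16 months. The first 3 ages lay within 1.76-fold of each other, and the 16 month library was 10.8 times below that at 1.5 months and 6.15 times below that at 3 months.

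Matn4 was the member that chondrocyte-like cells did not lead. It stood at 186, 105, 95.1 and 49.3 CPM in chondrocyte-like cells from the youngest to the oldest library and at 376, 274, 234 and 211 CPM in LMP-like cells. The ratio of chondrocyte-like to LMP-like cells was 0.493 (0.459 to 0.530) at 1 month, 0.383 at 1.5 months, 0.406 at 3 months, and then 0.233 at 16 months. Within the LMP-like cells it lay in a subcluster led by Mfap4, Nppc, Nov and Tnmd, at 664 CPM (632 to 698) in 283 cells at 1 month and 674 CPM (641 to 709) in 276 cells at 1.5 months, and in a cluster led by Mfap4, Nov, Sfrp2 and Coch, at 446 CPM (411 to 484) in 237 cells at 3 months. In the other large LMP-like subcluster, led by Ostn, Aspn, Tnn and Postn, Matn4 was at 166 and 72.0 CPM at 1 and 1.5 months. These levels were below the 186 and 105 CPM of the chondrocyte-like cells. At these ages the Mfap4-led subcluster had 3 of the 6 late mesenchymal progenitor markers raised and 0 among its 10 leading genes.

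Acan showed the reverse split, with 447 and 452 CPM in the Ostn-led subcluster against 234 and 339 CPM in the Mfap4-led subcluster at 1 and 1.5 months, and 282 against 123 CPM at 3 months. Within this 1 class, then, the 2 members ran opposite ways between the Mfap4-led and Ostn-led cells of each of the 3 younger libraries. At 16 months all 246 LMP-like cells formed 1 cluster, led by Ptn, Fmod, Tnn and Aspn.

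Over the whole class Ucma was lower at each later age. It stood at 2754 CPM at 1 month, 1831 at 1.5 months, 963 at 3 months, and then 667 at 16 months, and no interval overlapped another. The 16 month library was 4.13 times below the 1 month library. The step from 1 to 1.5 months (0.665 times) turned direction inside 2 of the 3 named stages of the growth plate. It was 1.23 times (1.18 to 1.27) in resting-like and 1.14 times (1.07 to 1.22) in cycling-like cells. Ucma fell from 1029 to 752 CPM in hypertrophic-like cells and from 3886 to 2172 CPM in cells without a stage name. Resting-like cells, at 2278 CPM at 1 month and so below the whole class, made up 39.1% of the class at 1 month and 17.4% at 1.5 months. Hypertrophic-like cells made up 13.8 and 26.9%, and cells without a stage name 41.0 and 45.1%. The part of these shares in the step was not tested. In cells of other classes at 16 months Ucma was nearly absent. There was 1 UMI in the 141 early mesenchymal progenitor-like cells and 0 in the 246 LMP-like cells.

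Mia and Cytl1 ran the other way. Mia stood at 1212 CPM at 1 month, 2291 at 1.5 months, 6236 at 3 months, and then 6629 at 16 months, which makes the 16 month library 5.47 times the 1 month library (5.31 to 5.63). The order of the last 2 libraries turned under the other scalings, with 5950 and 5910 CPM as the mean of per-cell CPM and 8645 and 8023 CPM with collagen, ribosomal protein and mitochondrial genes out of the denominator. Cytl1 stood at 105 CPM (97.3 to 113) at 1 month, 126 (122 to 130) at 1.5 months, 1588 (1560 to 1617) at 3 months, and then 5392 (5280 to 5507) at 16 months. The libraries at 3 and 16 months were 12.6 and 43.0 times the 1.5 month library for Cytl1, the widest spread upward of any member.

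Where another class came near in Cytl1, a single cell held nearly all of that class's UMIs. At 1.5 months the neutrophil-like class stood at 86.9 CPM, with 46 of its 57 UMIs in 1 of 47 cells. At 3 months the mural-like class stood at 948 CPM, but 106 of its 108 UMIs lay in 1 of 30 cells, and at 16 months the erythroid-like class stood at 243 CPM, with 664 of 685 UMIs in 1 of 202 cells. Without that cell the 3 classes stood at 17.0, 18.3 and 7.51 CPM. The same held for Ucma in the 3 month endothelial-like cells, the next class there, where 84 of 96 UMIs lay in 1 of 247 cells and the level without it was 8.04 CPM in place of 63.6.

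Epyc stood at 309 CPM at 1 month, 644 at 1.5 months, 500 at 3 months, and then 94.8 (80.5 to 111) at 16 months. It was 2.09 times higher at 1.5 months than at 1 month (1.99 to 2.19) and 6.79 times lower at 16 months than at 1.5 months. Of the classes that are not chondrocyte-like, the highest at 3 months was the osteoblast-like with 13.4 CPM.

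**Figure D2:**
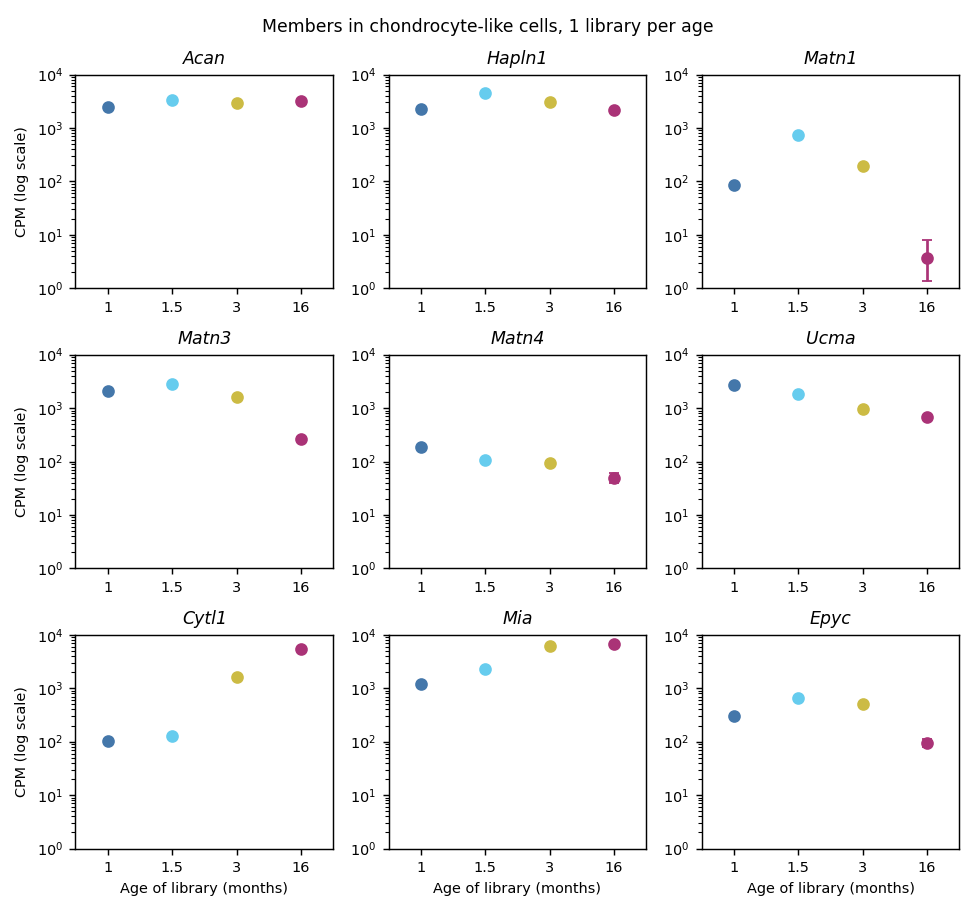
Level of each member in chondrocyte-like cells (CPM, log scale) against the age of the library in months, with 1 panel per member, 1 point per library and 95% Poisson intervals that are often smaller than the point. Matn1 and Epyc peak at 1.5 months, Ucma is lower and Cytl1 higher at each later age, Mia is higher at 3 and 16 months than before (the order of those 2 turns under other scalings), and Acan stays between 2511 and 3402 CPM.

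The summed level of the 9 members was 11590 CPM at 1 month, 16510 at 1.5 months, 17200 at 3 months, and then 18350 at 16 months, but this order depended on the scaling. As the mean of per-cell CPM the sum was 11080, 15920, 16850 and 16320 CPM, and with collagen, ribosomal protein and mitochondrial genes out of the denominator it was 16260, 25050, 23840 and 22210 CPM, so only the 1 month library was lowest under all 3 scalings. Col2a1, the main collagen of cartilage, went from 31700 and 47450 CPM at 1 and 1.5 months to 31840 at 3 months and 3730 (3637 to 3825) at 16 months. The members therefore gave 36.6, 34.8, 54.0 and 492 UMIs for every 100 Col2a1 UMIs. Acan at 16 months was 1.25, 0.920 and 1.05 times its level at 1, 1.5 and 3 months, whereas Hapln1 was 0.9225, 0.470 and 0.702 times and Matn3 0.123, 0.0923 and 0.163 times.

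Read against all genes tested, the changes were as follows. From 1 to 1.5 months 2 members (Matn1 and Epyc) were at least 2-fold higher and 0 at least 2-fold lower, where 4.12% of all genes were higher, 6.33% lower and 10.5% apart in either direction. From 1.5 to 3 months 2 were higher (Cytl1 and Mia) and 1 lower (Matn1), where the shares of all genes were 3.24%, 3.21% and 6.44%. From 1.5 to 16 months 2 were higher (Cytl1 and Mia) and 6 lower (the rest but Acan), where the shares were 23.9%, 16.3% and 40.2%. From 3 to 16 months 1 was higher (Cytl1) and 3 lower (Matn1, Matn3 and Epyc), beside 21.5%, 10.4% and 31.9% of all genes. Against the 1 month library, the oldest cells had 2 members higher and 5 lower, beside 22.5%, 19.8% and 42.3%, so in the oldest library the members' count of changes stands against a background in which many genes differed. The median log2 ratio of the members was 0.44, -0.36 and -1.09 for the steps from 1 to 1.5, 1.5 to 3 and 1.5 to 16 months, beside -0.08, -0.10 and 0.13 over all genes tested. These comparisons share the 1.5 month library. They took the 26600 genes listed in all 4 matrices. The 16 month matrix had a longer gene list than the others, and the part of that in the folds to 16 months was not tested.

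In single cells, each thinned to 3000 UMIs so that depths were equal (0, 0, 25 and 4 shallower cells were left out), Acan was found in 94.5, 98.9, 97.6 and 98.2% of chondrocyte-like cells and Hapln1 in 93.9, 99.3, 96.5 and 94.7%. Matn1 was found in 9.53, 65.8, 24.9 and 0.885% of them. Cytl1 was found in 11.8, 10.3, 41.2 and 84.1%, and Mia in 85.4, 97.7, 97.8 and 97.4%. Acan and Hapln1 were thus found in nearly every cell at every age, Mia in most, and Matn1 and Cytl1 in a share that changed with age. Matn3 was in 85.0, 95.9, 87.8 and 23.9%, Ucma in 84.6, 87.5, 63.4 and 51.3%, Epyc in 36.1, 70.4, 62.9 and 21.2% and Matn4 in 35.9, 25.2, 20.97 and 9.74%.

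Neutrophil-like cells, which should lack these genes, gave the background, at 0.253 to 5.51% for the 9 members at 1 month, 0.466 to 8.16% at 3 months and 0 to 1.29% at 16 months (the interval of 0 of 233 cells runs up to 1.57%). Their median depths were 11564.5, 11320, 6911 and 7176 UMIs against 12118, 15347, 8435.5 and 13255 UMIs in chondrocyte-like cells from the youngest to the oldest library. At 1.5 months the 47 neutrophil-like cells gave 10.6 to 74.5% and, with members at 39.1 to 79.8% of the chondrocyte-like level, were no clean background. The share for Cytl1 over all chondrocyte-like cells at that age (10.3%) was not above theirs (10.6%, 5 of 47 cells), and 2 of 31 endothelial-like cells (6.45%) had a UMI. Without thinning 39.1% of the resting-like cells at 1.5 months had a Cytl1 UMI, against 23.6% of the hypertrophic-like and 23.4% of the neutrophil-like cells, although the resting-like cells were the shallowest of these (median 9721 UMIs against 17724.5 and 11320). Without thinning the shares in chondrocyte-like cells were higher, for example 19.5, 85.2, 43.0 and 5.13% for Matn1 and 23.1, 26.4, 56.1 and 89.7% for Cytl1. A median of 6, 7, 6 and 5 of the 9 members was found per thinned chondrocyte-like cell.

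**Figure D3:**
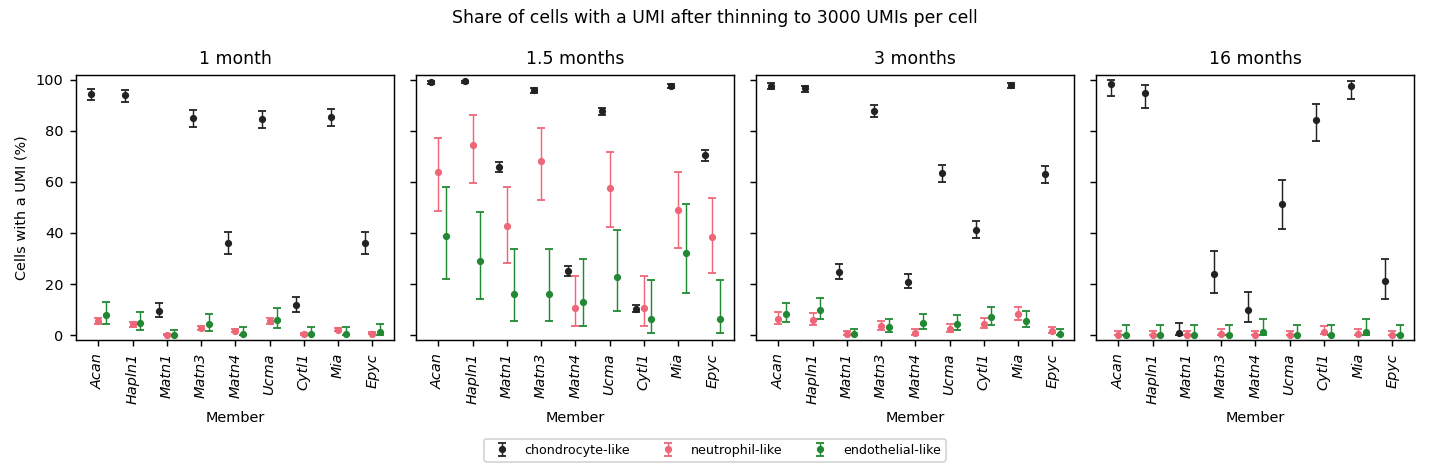
Share of cells with at least 1 UMI of each member (percent) after thinning to 3000 UMIs per cell, for chondrocyte-like, neutrophil-like and endothelial-like cells, with 1 panel per library and exact 95% Clopper-Pearson intervals. Acan and Hapln1 stand at 93.9% or more in chondrocyte-like cells of every library, Matn1 runs from 0.885 to 65.8%, and for each member the share in neutrophil-like cells is highest at 1.5 months.

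The Cytl1 UMIs were held by fewer cells than those of Acan in each library, and least so at 16 months. In the same thinned cells the richest 10% of chondrocyte-like cells held 94.7, 99.5, 78.4 and 42.1% of the Cytl1 UMIs from the youngest to the oldest library, and 25.8, 21.3, 19.9 and 24.7% of the Acan UMIs. At 1 and 1.5 months only 11.8 and 10.3% of the thinned cells had a Cytl1 UMI, so the richest 10% hold nearly all of them by construction. Without thinning, 50% of all Cytl1 UMIs lay in 10 of 493 cells, 18 of 1982, 32 of 893 and 14 of 117. The single richest cell held 895 of the 12041 Cytl1 UMIs at 3 months and 661 of the 8755 at 16 months, and without it the level of the class was 1472 and 5039 CPM.

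**Figure D4:**
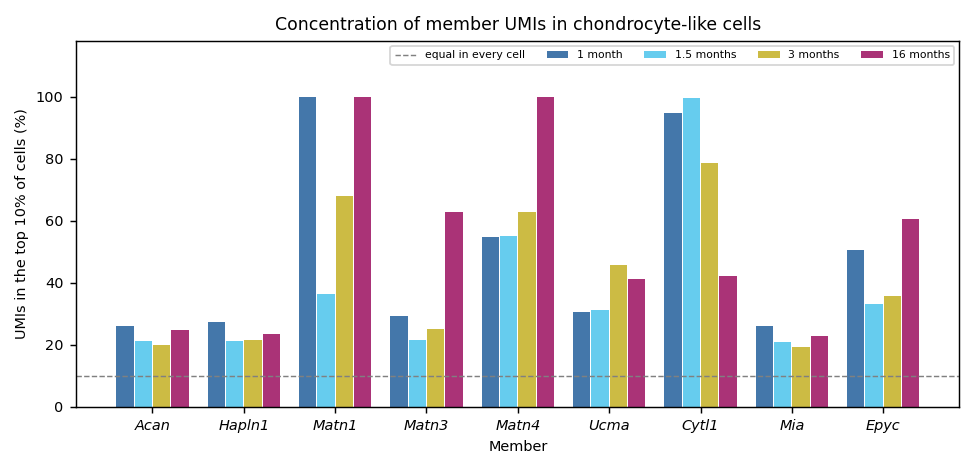
Share of each member's UMIs held by the richest 10% of chondrocyte-like cells (percent), with 1 bar per library, after thinning to 3000 UMIs per cell, and a dashed line at the 10% that equal counts in every cell would give. Acan, Hapln1 and Mia lie at 19.2 to 27.3% in every library and Cytl1 at 42.1% at 16 months against 99.5% at 1.5 months, while a member found in about 10% of the cells or fewer has nearly all of its UMIs in the richest 10% by construction.

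Stages of the growth plate were named within the chondrocyte-like cells from stage markers that are not members (such as Pthlh and Sfrp5 for resting, Mki67 for cycling and Ihh and Col10a1 for hypertrophic cells). There were 193 resting-like, 30 cycling-like and 68 hypertrophic-like cells at 1 month, 345, 209 and 534 at 1.5 months, and 45, 54 and 257 at 3 months. The remaining 202, 894 and 537 cells and all 117 cells at 16 months were in clusters without a stage name. The 45 resting-like cells at 3 months, led by Myoc and Prg4, had 6 of the 7 resting markers raised but only 3 of the 7 chondrocyte markers. The cycling-like and hypertrophic-like cells there had 6 and 7 chondrocyte markers raised. Whether these 45 cells came from a growth plate was not tested.

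Acan and Hapln1 were highest in hypertrophic-like cells in all 3 libraries with stages. Acan was at 1830, 1927 and 1240 CPM in resting-like cells and at 3597, 4504 and 3213 CPM in hypertrophic-like cells of the 1, 1.5 and 3 month libraries, 1.97, 2.34 and 2.59 times higher. Hapln1 was at 1340, 2115 and 1033 CPM in resting-like and at 3758, 6327 and 3831 CPM in hypertrophic-like cells, 2.80, 2.99 and 3.71 times higher. Cycling-like cells lay between them for both genes, at 1951, 2952 and 2223 CPM for Acan.

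Matn1 and Epyc had their low point in resting-like cells. Matn1 was at 19.9, 271 and 0 CPM in resting-like cells (0 UMIs at 3 months, with an interval up to 15.6 CPM) and at 278, 995 and 313 CPM in hypertrophic-like cells. Epyc was at 90.5, 235 and 50.8 CPM in resting-like and at 452, 634 and 404 CPM in hypertrophic-like cells, with 284, 657 and 411 CPM in cycling-like cells. In clusters without a stage name, that led by C1qtnf3 held Epyc at 969 CPM at 1.5 months, the highest of any cluster of that library.

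Ucma was the reverse of Acan. It was at 2278, 2791 and 525 CPM in resting-like cells and at 1029, 752 and 190 CPM in hypertrophic-like cells, 2.21, 3.71 and 2.77 times higher in resting-like cells. In cycling-like cells it was at 2069, 2364 and 1152 CPM, above the resting-like level at 3 months alone. Cells without a stage name stood at 3886, 2172 and 1370 CPM, above all 3 stages at 1 and 3 months. The 2 hypertrophic-like clusters of the younger libraries differed too, with Ucma at 1446 and 1069 CPM in the cluster led by Cdkn1c and at 486 and 341 CPM in the cluster led by Col10a1 at 1 and 1.5 months, and Epyc at 658 and 793 CPM against 184 and 427 CPM.

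Matn4 was higher in resting-like than in hypertrophic-like cells, at 281 against 108 CPM at 1 month, 164 against 89.97 at 1.5 months and 195 against 65.6 at 3 months. At 1 month this direction turned when cells with fewer than 1000 genes were left out before clustering. Matn3 was at 1709, 2332 and 398 CPM in resting-like and at 1782, 2633 and 1387 CPM in hypertrophic-like cells, and at 1 month the interval of their ratio (0.907 to 1.01) included 1. Cycling-like cells stood at 1818, 3297 and 1762 CPM of Matn3, the highest of the 3 named stages, but at 1 month the intervals of the ratio of cycling-like to hypertrophic-like (0.940 to 1.11) and of resting-like to cycling-like cells (0.872 to 1.015) included 1. Cells without a stage name stood above them at 1 month (2607 CPM) and close to them at 3 months (1772 CPM). Mia was higher in hypertrophic-like cells, at 1379, 2487 and 7506 CPM against 1135, 1921 and 2552 CPM in resting-like cells.

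Cytl1 did not keep 1 order of stages. It was at 168 and 141 CPM in resting-like and hypertrophic-like cells at 1 month, where the interval of their ratio (0.982 to 1.45) included 1, at 714 and 31.4 CPM at 1.5 months, and at 10200 and 2944 CPM at 3 months. In the 45 resting-like cells at 3 months 1 cell held 895 of the 2411 Cytl1 UMIs, and the level without it was 6665 CPM, still above the hypertrophic-like level. A single cell also held 40 of the 94 Matn3 UMIs and 6 of the 12 Epyc UMIs of these resting-like cells, whose levels without the richest cell of each gene were 245 and 27.3 CPM. In the 30 cycling-like cells at 1 month Cytl1 was at 83.9 CPM, and at 42.9 CPM without its richest cell. At 1.5 months the highest cluster was a resting-like cluster of 26 cells led by Prg4, the lubricin of joint surfaces, with 4836 CPM, and the other resting-like clusters, led by Clu and Sfrp5, stood at 572 and 450 CPM. The 3 month resting-like cells formed 1 cluster, led by Myoc and Prg4. At a finer clustering the direction between resting-like and hypertrophic-like cells at 3 months turned for Cytl1 and for Matn3.

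**Figure D5:**
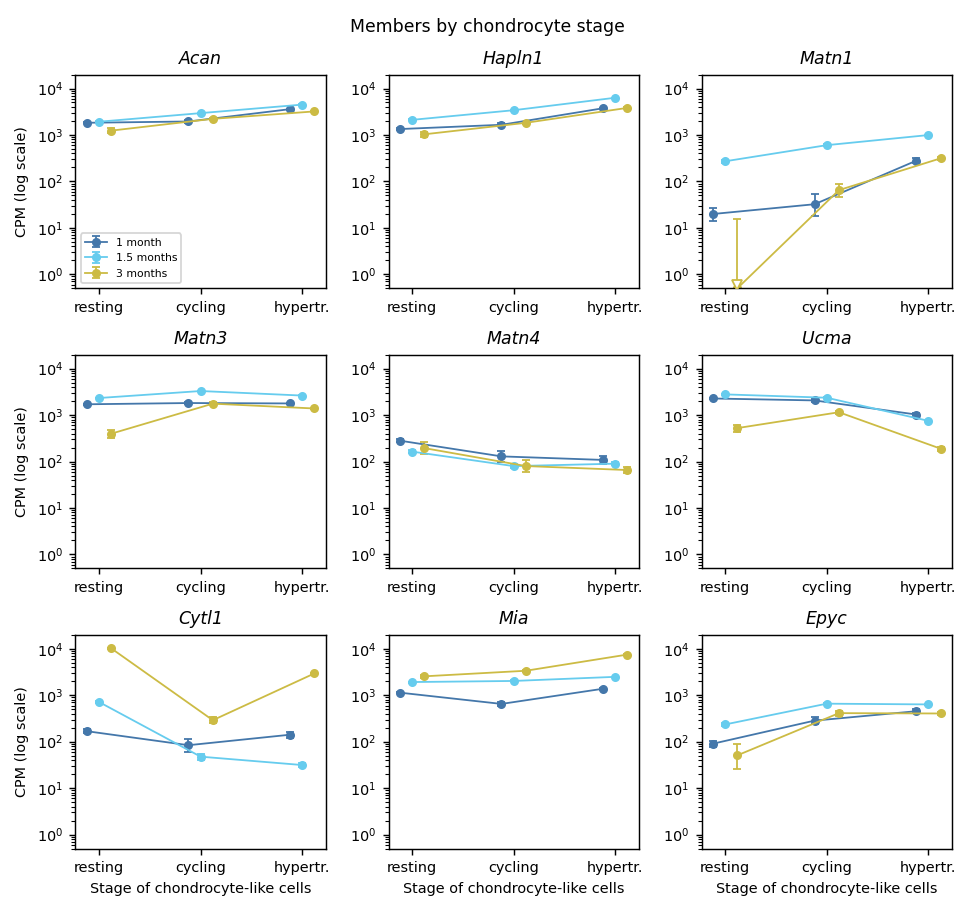
Level of each member (CPM, log scale) in resting-like, cycling-like and hypertrophic-like cells, with 1 line per library at 1, 1.5 and 3 months and 95% Poisson intervals, and with the 0 UMIs of Matn1 in 3 month resting-like cells drawn at the lower edge. Acan and Hapln1 are highest and Ucma lowest in hypertrophic-like cells of all 3 libraries. The resting-like cells at 3 months are 1 cluster led by Myoc and Prg4, unlike those of the younger libraries.

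Counted together, at least 2-fold higher in resting-like than in hypertrophic-like cells were 2, 2 and 3 members at 1, 1.5 and 3 months, where 8.96%, 10.5% and 24.3% of all genes tested were. At least 2-fold higher in hypertrophic-like cells were 3, 4 and 6 members, where 5.53%, 4.61% and 13.3% of all genes were. Cycling-like cells had 1, 1 and 1 members at least 2-fold above hypertrophic-like cells (20.7%, 11.6% and 26.9% of all genes) and 3, 0 and 4 below them (8.72%, 4.58% and 8.41%). Against resting-like cells they had 1, 2 and 4 members above (16.3%, 8.84% and 24.1%) and 2, 2 and 2 below (9.29%, 7.71% and 16.4%). The resting-like clusters were led by Clu, Sfrp5 and Prg4 in the 1 and 1.5 month libraries, which were clustered together, and by Myoc and Prg4 at 3 months, which was clustered alone, so the resting-like cells at 3 months are not the same clusters.

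A split that did not use clusters was also made, between cells with and without a UMI of Ihh or Col10a1 after thinning. Such a UMI was found in 62 of 493 chondrocyte-like cells (12.6%) at 1 month, 268 of 868 (30.9%) at 3 months, and then 46 of 113 (40.7%) at 16 months, against up to 4.79%, 8% and 2.63% in the other named classes of the same libraries. At 1.5 months it was found in 62.4% of the chondrocyte-like cells but also in 36.5 to 71.4% of the cells of the 11 other classes, so the split is not read at that age. Hapln1 was higher in the cells with such a UMI at 1, 3 and 16 months, at 1.81, 1.35 and 1.18 times the level without. Ucma was lower at these ages, at 0.412, 0.249 and 0.267 times, and so was Matn3, at 0.688, 0.799 and 0.216 times. Matn1 was 11.5 and 2.38 times higher at 1 and 3 months and had 0 UMIs in the cells with such a UMI at 16 months.

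The changes between ages were next taken inside the named stages, which were not the same clusters at 1.5 and 3 months. The resting-like cells at 3 months were the cluster led by Myoc and Prg4. Their Col2a1 level was 6762 CPM, against 35140 CPM in the resting-like cells at 1.5 months. At 1.5 months the Prg4-led resting-like cluster was already the highest in Cytl1. From 1.5 to 3 months Cytl1 went from 31.4 to 2944 CPM in hypertrophic-like cells, where the first value was no higher than in the LMP-like cells of that library (35.0 CPM), and from 714 to 10200 CPM in resting-like cells. Mia was 3.02 times higher at 3 months in hypertrophic-like cells. Matn1 was 0.315 times its 1.5 month level in the 3 month hypertrophic-like cells, and Ucma 0.252 times. The hypertrophic-like cells at 1.5 months held the Cdkn1c-led and Col10a1-led clusters, and those at 3 months 1 cluster led by Krtap17-1, Ihh and Col10a1. Ucma at 1.5 months was lower in the Col10a1-led cluster, so its ratio does not compare like clusters. From 1 to 1.5 months Ucma was lower in hypertrophic-like cells (0.731 times) but higher in resting-like (1.23 times) and cycling-like cells (1.14 times). Over the same step Matn1 was 13.6 times higher in resting-like, 18.7 times in cycling-like and 3.57 times in hypertrophic-like cells. Its 1 month levels were low in resting-like (19.9 CPM, 40 UMIs) and cycling-like cells (32.3 CPM, 15 UMIs). At 1.5 months Matn1 stood at 31.6 to 332 CPM in the other named classes, and the part of that background in the folds was not tested. In counts, from 1 to 1.5 months 3 members were at least 2-fold higher and 0 lower in resting-like cells (6.03%, 6.46% and 12.5% of all genes were higher, lower and apart), 4 and 0 in cycling-like cells (8.54%, 16.1% and 24.6%), and 1 and 1 in hypertrophic-like cells (5.57%, 9.22% and 14.8%). From 1.5 to 3 months 1 was higher and 5 lower in resting-like cells (12.9%, 15.0% and 27.9%), 1 and 2 in cycling-like cells (9.88%, 5.77% and 15.7%), and 2 and 2 in hypertrophic-like cells (6.21%, 9.55% and 15.8%). Cytl1 was the member at least 2-fold higher in all 3 stages in that later step. For Cytl1 the step from 1 to 1.5 months gave 4.25-fold in resting-like and 0.223-fold in hypertrophic-like cells, beside a small change over all chondrocyte-like cells. The hypertrophic-like level at 1.5 months (31.4 CPM) was no higher than in the LMP-like cells. The resting-like cells at 1.5 months held the Prg4-led cluster, and its part in their ratio was not tested.

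At 16 months 2 clusters made up the chondrocyte-like cells, 68 cells led by Cilp (a matrix protein of articular cartilage) and 49 led by Hp (haptoglobin), with Serping1, Cxcl12, Igfbp4, Hba-a1 and Vcam1 also among the leading genes of the latter. The 7 adipocyte markers summed to 316 CPM in the Cilp-led and 4205 CPM in the Hp-led cluster, the 7 erythroid markers to 215 and 1698 CPM, and the 7 chondrocyte markers to 11580 and 6356 CPM, and the part of these transcripts in the members' levels was not tested. Cytl1 was at 6870 CPM in the Cilp-led and 2940 CPM in the Hp-led cluster, Ucma at 879 and 315 CPM, and Matn3 at 342 and 129 CPM. Acan (3415 and 2658 CPM) and Mia (7382 and 5379 CPM) differed less between them, and the 9 members summed to 21370 and 13340 CPM.

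The other genes of cartilage matrix, its synthesis, breakdown and regulation were taken from lists that hold no member. Of 21 further cartilage matrix genes, 18, 17, 16 and 17 were tested at 1, 1.5, 3 and 16 months, and 5, 0, 4 and 7 were at least 4-fold higher in chondrocyte-like cells than in every other named class. Of all genes tested 0.793%, 0.0877%, 1.14% and 1.53% were, and these shares stand beside the counts of each list. Mgp, an inhibitor of calcification, had the highest mean level (4543 to 45380 CPM over the libraries), followed by Snorc, a transmembrane proteoglycan of chondrocytes (7189 to 12430 CPM), and Comp, a collagen-binding matrix protein (3852 to 7344 CPM). Snorc, Cnmd (chondromodulin) and Scrg1 passed the 4-fold limit in 3 of 4 libraries, Chad (chondroadherin) and Clec3a in 2, and Mgp, Comp and Susd5 in 1 each. At 1.5 months, where the 47 neutrophil-like cells also held member transcripts, 0 genes of any of these lists passed, and only 10 of all 11397 genes tested did. A pass in 3 of 4 libraries therefore leaves out the 1.5 month library alone.

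Of 24 genes for chondroitin sulfate and hyaluronan synthesis, 22, 21, 20 and 22 were tested and 2, 0, 3 and 3 passed. Papss2, which makes the sulfate donor for chondroitin sulfate, passed in 3 libraries (312 to 592 CPM), Chst11, a chondroitin sulfotransferase, and Xylt1, which starts the chains, in 2, and the sulfate transporter Slc26a2 in 1. Ugdh, which makes the sugar precursor, was higher in another class in each library (in early mesenchymal progenitor-like cells at 1, 1.5 and 3 months). Of 10 genes for breakdown of aggrecan and link protein, 0 passed in any library, which is near the small shares over all genes and so no result about this list. The highest were the inhibitor Timp3 (263 to 1774 CPM) and the proteases Htra1 (151 to 280 CPM) and Mmp13 (22.8 to 240 CPM). Among 10 regulators, Sox9, the main chondrocyte transcription factor, passed in 3 libraries (400 to 1242 CPM over all 4) and Sox5 in 2, while Zbtb20 and Mef2c, the next highest, did not.

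Across 96 clusters by library (the clusters share libraries and depths, so r is a description), the genes most like the mean of the members over 12648 genes were Col9a2 (Pearson's r = 0.974), Col9a3 (0.968), Snorc (listed in the files as 3110079O15Rik, 0.961), Fxyd2 (0.957), Scrg1 (0.954), Syt8 (0.954) and Col9a1 (0.935), all on the log2(CPM + 1) scale. Il17b (0.934), Col2a1 (0.928) and Chadl (0.928) made up the 10. Among the members, Acan and Hapln1 were most alike (0.967) and Matn4 and Cytl1 least (0.292). The genes most like Matn4 were 3632451O06Rik (0.816), Camk4 (0.808) and Aebp1 (0.799), and those most like Cytl1 were Plekhb1 (0.767), Wisp3 (0.766) and Serpina1d (0.766), so neither had the type IX collagen genes that stood nearest to Matn3, Ucma and Epyc.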

How the data were processed

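The authors deposited UMI counts per gene and cell barcode, made with Cell Ranger 3.0.2 on mm10 with the tomato sequence added. The gene annotation was not given in the sources used here, and these 3′ counts are not divided by length, so a gene is compared with itself. The tables held 8417, 5745, 4516 and 9229 barcodes at 1, 1.5, 3 and 16 months. The study's stated filter (between 200 and 6000 genes, no more than 5% of UMIs mitochondrial) left 8308, 5453, 4180 and 6143 cells with a median of 6264 to 10279.5 UMIs. No further doublets were removed, and Scrublet (scanpy 1.11.5), which called 350, 97, 57 and 9 cells, served in an alternative without the highest 8% of scores.

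Cells were clustered with Seurat 5.3.0 in R 4.3.3 (2000 variable genes, 30 components, resolution 0.8), the 1 and 1.5 month libraries together by canonical correlation and the others alone. Members, cartilage matrix genes and cell type markers were left out of the variable genes. A class or stage needed at least 3 raised markers, found in 10% of cells at 25% (stages 50%) of the highest cluster's level, and these rebuilt names may differ from the study's. Levels are summed UMIs of a class scaled to 1e+06 (CPM) with exact Poisson intervals, and shares have Clopper-Pearson intervals. With 1 library per age, "tested" means only that a gene had at least 10 CPM in a group and its fold was read against 4 (classes) or 2 (ages and stages). Calculations used Python 3.11.15 and scipy 1.17.1 and were checked on simulated data. The genes named are the 9 members, the 3 highest and any 4-fold higher gene of each other list, the 10 most like the members' mean and up to 3 most like a member. Members and lists were chosen with earlier results of these data known. In all, 43 alternatives were planned and 9 added after seeing the data.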

Additional observations from a re-analysis of the deposited data

Results flagged for a closer look

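Barcodes outside the filter on genes and mitochondrial UMIs, which no comparison above used, held transcripts of the 9 members. Their summed level was 1620 CPM in 109 barcodes at 1 month, 5271 CPM in 292 barcodes at 1.5 months, 3568 CPM in 336 barcodes at 3 months and 274.6 CPM in 3086 barcodes at 16 months, against 880.9, 8460, 4499 and 494 CPM in all cells kept. The level outside was above that of the cells kept at 1 month and below it at the other ages.

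For 3 members the ratio of a pair of stages had a counting interval wholly above 1 in one library and wholly below 1 in another, and none of these differences was tested. For the other members whose ratios crossed 1, the intervals on at least 1 side of it included 1. Cytl1 in cycling-like cells was 1.515 times its level in hypertrophic-like cells at 1.5 months, but 0.5947 times at 1 month and 0.09841 times at 3 months. Mia in resting-like cells was 1.747 times its level in cycling-like cells at 1 month, 0.9473 times at 1.5 months and 0.7587 times at 3 months. Ucma in resting-like cells was 1.101 and 1.181 times its level in cycling-like cells at 1 and 1.5 months and 0.4554 times at 3 months.

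By the same rule the split by a UMI of Ihh or Col10a1 turned direction for Acan and Cytl1, again untested. For both the turn lies between 16 months and the ages of 1 and 3 months. Values at 1.5 months are listed but not read. Cells of the other classes there had such a UMI about as often (36.5 to 71.4%, against 62.4% of chondrocyte-like cells). Acan was 1.234, 1.166 and 1.104 times higher in cells with such a UMI at 1, 1.5 and 3 months and 0.815 times the level without at 16 months. Cytl1 was 2.792 and 2.139 times higher with it at 1 and 3 months, and 0.6678 and 0.2918 times the level without at 1.5 and 16 months.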

How the results depend on the processing

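No paired analysis was possible because each age had 1 library and the labels gave no replicate numbers that ages share. Of the counts, sums and stage orders recomputed under the alternatives, 158 stayed within their limits and 32 moved, and of the members' own ratios 352 stayed, 35 moved and 3 reversed. The summed member level in chondrocyte-like cells (11590, 16510, 17200 and 18350 CPM at 1, 1.5, 3 and 16 months) became 11890, 17290 and 18860 CPM at 1, 3 and 16 months with up to 10% mitochondrial UMIs, 11730 CPM at 1 month with at least 1000 genes per cell, and 11690, 16700, 17560 and 18660 CPM at the 4 ages without the highest 8% of Scrublet scores. As the mean of per-cell CPM it was 11080, 15920, 16850 and 16320 CPM, and with collagen, ribosomal protein and mitochondrial genes out of the denominator 16260, 25050, 23840 and 22210 CPM. At 1 month it was 11710 CPM at a resolution of 1.2 and 11490 CPM with 20 components. Added after seeing the data, keeping a cluster of 149 cells (90 at 1 month and 59 at 1.5 months) led by Car3, which had left the class, gave 9465 and 16100 CPM at those ages, and leaving out clusters led by markers of other types gave 11710, 16570 and 16790 CPM at 1, 1.5 and 3 months.

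The count of members at least 4-fold higher at 1.5 months, 0 as reported, rested on 47 neutrophil-like cells. It became 2 with up to 10% mitochondrial UMIs, 8 without the highest Scrublet scores, 5 at a fold of 2, and, both added after seeing the data, 7 against classes that are not blood cells and 7 among classes of at least 50 cells. The members at least 2-fold apart from 1 to 1.5 months, 2 as reported, were 4 with the other denominator, 6 at a fold of 1.5 and 4 with the cluster that left the class, and those from 1.5 to 3 months, 3 as reported, were 5 at a fold of 1.5. The log2 ratio of resting-like over hypertrophic-like cells reversed for Matn4 at 1 month with at least 1000 genes per cell (-0.16), and at a resolution of 1.2 at 3 months for Matn3 (0.26) and Cytl1 (-0.67). The cause was not tested. Leaving out resting-like clusters with Prg4 among their 2 leading genes, added after seeing the data, gave no value at 3 months, since the only resting-like cluster there was one of them. With 1 library per age, depth sets the counting intervals and nothing here measures the spread between mice.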
